A study of Mus musculus with 24 samples.

Results

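Cerebellar granule cells are the small excitatory neurons that fill the inner layer of the cerebellar cortex and outnumber all other neurons of the tissue. Their axons, the parallel fibers, carry mossy fiber input to the dendrites of Purkinje cells, the neurons whose degeneration is the best known lesion of spinocerebellar ataxia type 1 (SCA1). Granule cells are born from precursors of the external layer in the first postnatal weeks and migrate inward past the Purkinje cells before they wire up. The 10 genes described here were taken as a fixed list by symbol, and each symbol matched 1 gene of the GENCODE mouse annotation. Pax6, Neurod1, Zic1 and Barhl1 encode transcription factors of the granule cell lineage. Gabra6 and Gabrd encode the α6 and δ subunits of the GABA receptor that carries tonic inhibition, and Grin2c encodes the GluN2C subunit of the NMDA receptor, which replaces an earlier subunit as granule cells mature. Cbln3 encodes a secreted cerebellin, Slc17a7 the vesicular glutamate transporter VGLUT1, and Fat2 a giant cadherin of parallel fibers. All 10 passed the filter on low counts, among 22502 genes tested of 54232 listed.

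RNA of the cerebellum was sequenced from 24 mice aged 6 weeks, 1 library per mouse, and fragments were counted on each gene. The groups were WT (2 unexpanded Atxn1 alleles, 2Q/2Q, 8 mice), SCA1 (a knock-in with an expanded CAG repeat in 1 Atxn1 allele, Atxn1_154Q/2Q, 4 mice), SCA1 S776A (the serine-to-alanine change on the expanded allele, 4 mice), S776A double (the change on both the expanded and the 2Q allele, 4 mice) and WT S776A homozygous (the change on both 2Q alleles, 4 mice). The S776A alleles were made with CRISPR/Cas9 in fertilized ova, and all lines were crossed to C57BL/6J. The expanded repeat replaces the endogenous allele, so it acts in every cell type that expresses Atxn1 and not in granule cells or Purkinje cells alone.

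Libraries held 62163600 to 88430180 fragments on genes. Sequencing was done in 2 batches that the labels do not list. A split on shares of fragments that used no gene placed 16 mice in batch 1 (4 WT and all mice with an expanded allele) and 8 in batch 2 (4 WT and the 4 WT S776A homozygous mice). Each genotype is therefore compared with the 4 WT mice of its own batch. WT S776A homozygous mice 3 and 4 stood apart from the rest. They had the highest shares of counts on mitochondrial genes, 4.82% and 6.73%, against 3.01% to 4.38% in the other 22 libraries. The main counts of each genotype against WT are given with and without these mice. Both mice also enter the estimate of spread in the other comparisons. In bulk tissue, fewer cells of a type and less RNA per cell cannot be told apart.

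The members span a wide range of levels. In the WT mice of batch 1 the level per length (FPKM, library-scaled counts, CPM, divided by the kilobases of merged exons) was highest for Cbln3, at 332 ± 16.8 (SD, n = 4), and Gabra6, at 310.5 ± 9.24 (SD, n = 4), and the mice of these genes overlapped. Zic1 followed at 202 ± 8.97 (SD, n = 4). Slc17a7 and Neurod1, at 137 ± 3.65 and 129 ± 10.8 FPKM (SD, n = 4), overlapped each other. Grin2c had 102 ± 7.09, Gabrd 80.4 ± 2.63 and Fat2 63.4 ± 4.99 FPKM (SD, n = 4), with no overlap between neighbours. The transcription factors Pax6 and Barhl1 were lowest, at 12.5 ± 0.485 and 5.24 ± 0.273 FPKM (SD, n = 4). Cbln3 ranked 48th and Gabra6 55th among all tested genes by this measure, whereas Pax6 ranked 4161st and Barhl1 7818th. The order rests partly on the length used. With TPM over the longest transcript of each gene, Slc17a7 moved to place 3 and Zic1 to place 4, and the other members kept their places. It also rests on the strand counted. In first-strand and second-strand counts Neurod1 had 151 FPKM in both, above Slc17a7 at 124 and 128. Together the members took 0.645% to 0.676% of gene counts in these mice.

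**Figure D1:**
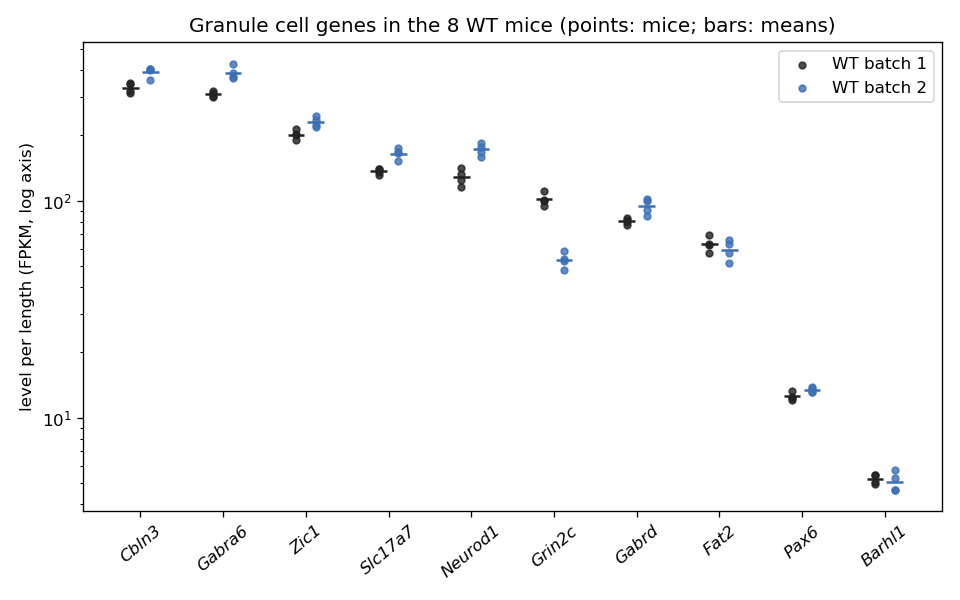
Level per length of each granule cell gene in the 8 WT mice, in FPKM on a log axis, with points for mice and bars for the means of the 4 mice of each batch. Cbln3 and Gabra6 were highest in both batches, and Grin2c went from a mean of 102 FPKM in batch 1 to 53.5 FPKM in batch 2.

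The members lie on 6 chromosomes of GRCm38. Gabra6 (chr11:42306437-42321072), Fat2 (chr11:55250609-55336564) and Grin2c (chr11:115249169-115267243) share chromosome 11, and Barhl1 (chr2:28907679-28916668), Neurod1 (chr2:79452521-79456751) and Pax6 (chr2:105668900-105697364) share chromosome 2. Gabrd lies at chr4:155384980-155398112, Slc17a7 at chr7:45163949-45176142, Zic1 at chr9:91358058-91365810 and Cbln3 at chr14:55878913-55884392. Pax6 and Slc17a7 are on the plus strand and the others on the minus strand. Neurod1 lies inside Cerkl on the same strand, with 201 shared exonic bases, and Zic1 shares 60 exonic bases with Zic4 on the other strand. Counting fragments regardless of strand, STAR left out those that fell on both genes of such a pair.

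RefSeq promoter windows (250 bases before to 50 after the annotated start, GRCm38.p6) were found for 9 of the 10 genes, with 2 each for Pax6 and Barhl1. Those of Gabra6 and Grin2c are shown because their levels most often moved in opposite directions between mice, tied with Gabra6 and Barhl1. The windows of Barhl1 are not shown. The window of Cbln3 is shown because it is the member with the highest level. Capitals mark TTGGC or its reverse complement GCCAA, the core motif of nuclear factor I, a family known to act on Gabra6 in maturing granule cells.
Gabra6 (chr11:42321023-42321322, minus strand): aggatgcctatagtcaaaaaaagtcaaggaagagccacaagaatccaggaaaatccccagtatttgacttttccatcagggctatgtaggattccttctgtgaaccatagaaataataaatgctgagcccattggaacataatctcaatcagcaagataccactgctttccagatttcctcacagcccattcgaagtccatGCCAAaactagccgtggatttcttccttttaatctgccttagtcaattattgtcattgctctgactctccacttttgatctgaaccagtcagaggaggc
Grin2c (chr11:115267194-115267493, minus strand): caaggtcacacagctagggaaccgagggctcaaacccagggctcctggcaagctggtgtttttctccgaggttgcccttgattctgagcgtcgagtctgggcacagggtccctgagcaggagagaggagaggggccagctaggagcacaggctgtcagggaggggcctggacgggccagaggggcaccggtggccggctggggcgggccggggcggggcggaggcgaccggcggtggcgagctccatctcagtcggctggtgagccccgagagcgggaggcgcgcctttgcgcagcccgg
Cbln3 (chr14:55884207-55884506, minus strand): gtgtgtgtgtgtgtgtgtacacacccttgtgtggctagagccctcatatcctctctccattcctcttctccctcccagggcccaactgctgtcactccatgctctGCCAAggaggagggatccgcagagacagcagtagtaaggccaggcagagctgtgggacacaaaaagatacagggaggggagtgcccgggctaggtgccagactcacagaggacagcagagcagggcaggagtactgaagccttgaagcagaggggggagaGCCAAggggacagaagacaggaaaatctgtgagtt
The Gabra6 window is 42% G or C with 2 CpG dinucleotides, the Cbln3 window 57% with 2, and the Grin2c window 70% with 22, against a median of 52.7% over 32851 promoters. The core motif was in 5 of the 11 windows of the members and in 46.7% of all promoters. An E-box, CANNTG, was in 8 of 11 and in 72.3% of all. CAGATG, the form of E-box bound by NEUROD factors and a subset of the CANNTG matches, or its reverse complement CATCTG was in none of the 11 and in 17.2% of all. The members' shares of the core motif and of the E-box lay close to those of all promoters. The RefSeq start of Fat2 lies 24307 bases inside the GENCODE gene, so its window is not that of the outermost start.

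The first question was whether the granule cell program differs in SCA1 mice at 6 weeks. None of the 10 members was called in SCA1 mice against WT by the quasi-likelihood test of edgeR. The call rule asked for an adjusted p (Benjamini-Hochberg) under 0.01 with a log2 fold change beyond 0.5 either way, and it called 0.173% of all tested genes. DESeq2, alone or after ComBat-seq, called none of them either. At an unadjusted p under 0.05 there was 1 member, Pax6, and 1857 of all genes (8.25%). With WT S776A homozygous mice 3 and 4 left out of the fit, 71 genes were called in place of 39, still with 0 members among them, and 2 members, Pax6 and Fat2, and 12.4% of all genes had an unadjusted p under 0.05. The median log2 fold change of the members was -0.05, beside 0.002 over all genes. No member had SCA1 and WT mice that did not overlap, as 8.76% of all genes did. The intervals bound what could have been missed. For 9 of the 10 members the 95% interval of the log2 fold change lay within 0.5 of 0 on either side, and Fat2 was the exception. Without homozygous mice 3 and 4 the interval of Fat2 was -0.42 to -0.07, also within 0.5 of 0.

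**Figure D2:**
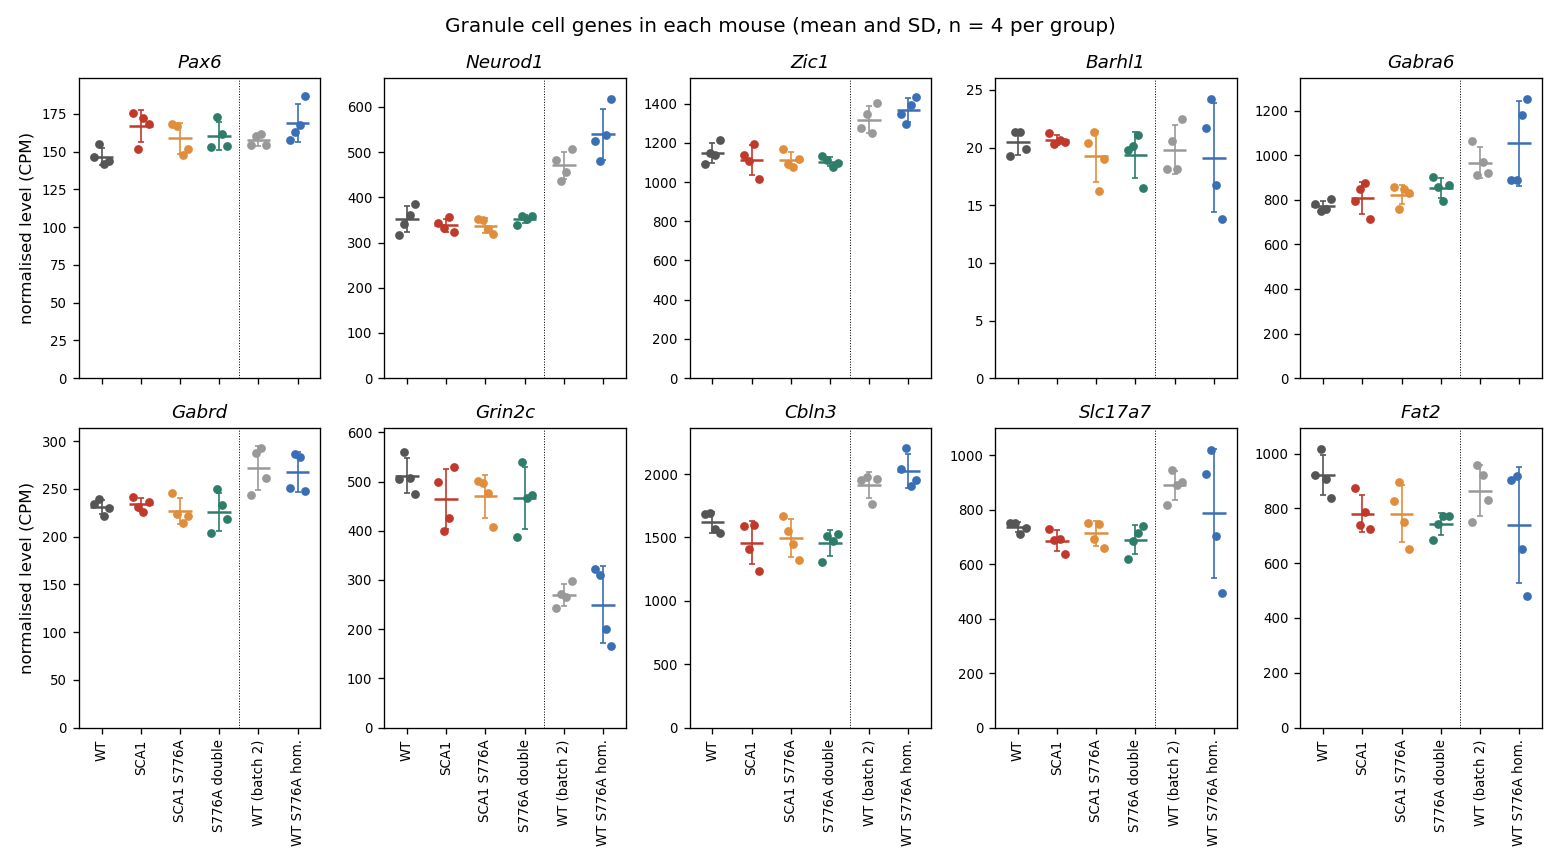
Normalised level of each granule cell gene in CPM, with a point for each mouse and the mean and SD of the 4 mice of each group, and a dotted line between batch 1 and batch 2. Genotypes with an expanded allele overlap the WT mice of batch 1, except S776A double mice for Fat2 and Cbln3, which lie below, while WT mice of batch 2 are shifted for several, and WT S776A homozygous mice spread widely for Gabra6, Fat2, Slc17a7, Grin2c and Barhl1.

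Among the transcription factors, Pax6, which acts from the precursor stage onward, had 146, 155, 142 and 144 CPM in the WT mice of batch 1 and 175, 152, 172 and 168 CPM in SCA1 mice. Of the SCA1 mice, 3 lay above every WT mouse and 1 within their range. The log2 fold change was 0.19 (95% interval 0.06 to 0.32, adjusted p = 0.298 by edgeR). Over all alternatives its lowest adjusted p was 0.011, from DESeq2 after ComBat-seq, still above the threshold, and without homozygous mice 3 and 4 it was 0.0872 by edgeR. SCA1 S776A mice had 168, 167, 148 and 151 CPM of Pax6 and S776A double mice 153, 173, 162 and 153.8, with log2 fold changes of 0.11 and 0.13 and adjusted p of 1.00 and 0.718 by edgeR. Neurod1, which drives granule cell differentiation, was within the WT range in every mouse with an expanded allele, at 317 to 386 CPM in WT, 323 to 357 in SCA1, 319 to 353 in SCA1 S776A and 339 to 359 in S776A double mice. Its log2 fold changes were -0.06, -0.06 and 0.00. Zic1, a zinc-finger factor of granule cells and their precursors, had 1090 to 1214 CPM in WT and 1014 to 1193 in SCA1 mice, with a log2 difference of -0.04. Barhl1, a homeodomain factor needed for granule cell survival, had 19.3 to 21.4 CPM in WT and 20.3 to 21.3 in SCA1 mice, with a log2 difference of 0.02.

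Among the receptor genes, Gabra6 had 781, 751, 758 and 801 CPM in WT mice of batch 1 and 797, 849, 874 and 713 in SCA1 mice, with a log2 difference of 0.06 (interval -0.12 to 0.25). S776A double mice had 900, 856, 793 and 865 CPM, of which 3 lay above the WT range, and the log2 fold change was 0.14 (adjusted p = 0.779 by edgeR). Gabrd, whose product assembles with α6, had 221 to 239 CPM in WT and 226 to 241 in SCA1 mice, with the narrowest interval among the receptor genes (-0.13 to 0.16). Grin2c had 505, 561, 506 and 475 CPM in WT mice and 499.9, 400, 427 and 530 in SCA1 mice, with a log2 difference of -0.14 (interval -0.46 to 0.18). For all 3 receptor genes SCA1 and WT mice overlapped, and the widest interval was that of Grin2c.

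The other members are Fat2, Cbln3 and Slc17a7. Fat2, the cadherin of parallel fibers, had 923, 1016, 908 and 839 CPM in WT mice of batch 1. SCA1 mice had 874, 738, 786 and 726 CPM, SCA1 S776A mice 828.7, 895, 749 and 652 CPM, and S776A double mice 686, 743, 771 and 773 CPM. In SCA1 and in SCA1 S776A mice 3 of 4 lay below the WT range, and in S776A double mice all 4 did. The log2 fold changes were -0.24, -0.24 and -0.31, each with a standard error of 0.14, and edgeR gave adjusted p of 0.716, 1.00 and 0.702. In S776A double mice the interval was -0.60 to -0.02. These comparisons share their WT mice. With WT S776A homozygous mice 3 and 4 left out of the fit the standard error was 0.085. SCA1 mice then had a log2 fold change of -0.25 (adjusted p = 0.178 by edgeR), SCA1 S776A mice -0.24 (adjusted p = 0.635 by edgeR), and S776A double mice a log2 fold change of -0.31 (interval -0.49 to -0.14, adjusted p = 0.0962 by edgeR).

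Cbln3, a granule cell cerebellin that is secreted together with Cbln1, had 1683, 1692, 1563 and 1532 CPM in WT mice of batch 1 and 1588, 1409, 1598 and 1239 in SCA1 mice. S776A double mice had 1303, 1512, 1469 and 1527 CPM, all below the lowest WT mouse, the nearest by a small margin. The log2 fold changes were -0.15 in SCA1, -0.11 in SCA1 S776A and -0.16 in S776A double mice (adjusted p = 0.67, 1.00 and 0.742 by edgeR). Slc17a7 had 711 to 753 CPM in WT and 637 to 729 in SCA1 mice, with a log2 difference of -0.10 (interval -0.37 to 0.17). Members were also set against each other within groups. Counting mice on the same side of their own group's mean, Cbln3 and Fat2 agreed in 21 of 24 mice, the most of the 45 pairs of members, where the median pair agreed in 14. Gabra6 with Grin2c and Gabra6 with Barhl1 agreed in 5 of 24, the fewest. The transcripts of these pairs differed by 22.4 and 20.8 percentage points in GC content, those of Cbln3 and Fat2 by 3.42, and the part of GC content in this was not tested.

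**Figure D3:**
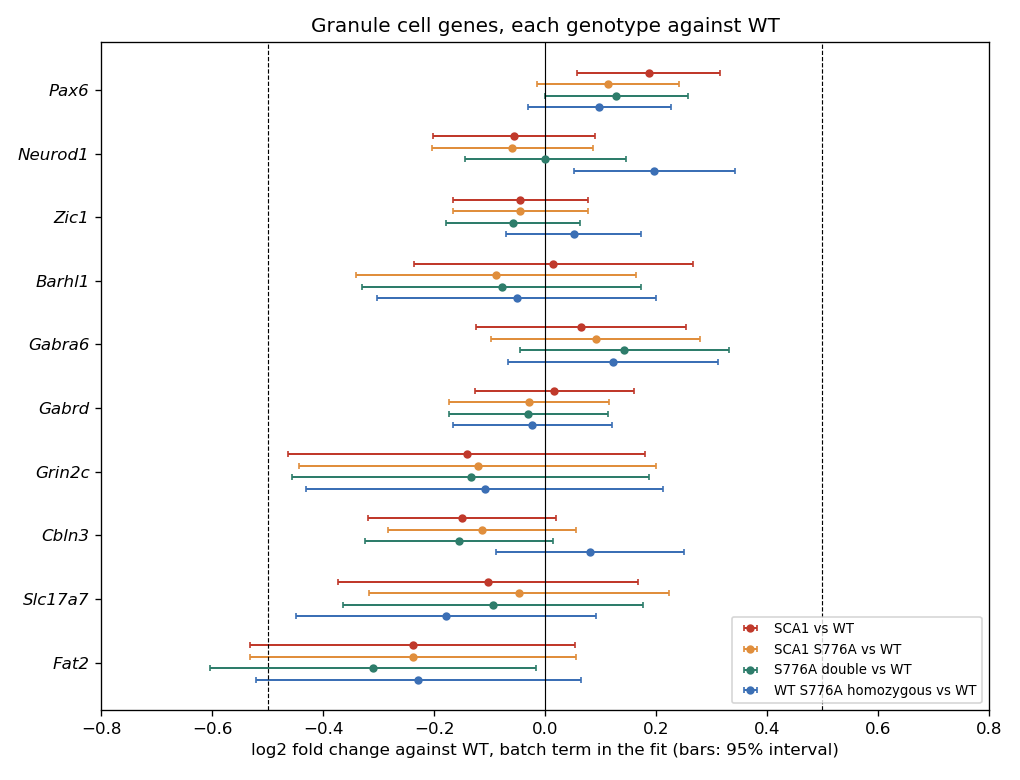
Log2 fold change of each granule cell gene against WT in the 4 genotypes, as points with 95% intervals from the edgeR fit with batch as a term; dashed lines mark a log2 fold change of 0.5 in either direction. Only intervals of Fat2 reach past -0.5, and no gene was called.

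SCA1 S776A and S776A double mice were compared with WT to ask whether blocking phosphorylation of the expanded protein, or of both proteins, leaves the granule cell genes different. No member was called by edgeR in SCA1 S776A mice, where the rule called 0.0133% of all genes, nor in S776A double mice, where it called 0.0267%. At an unadjusted p under 0.05 there were 0 members in SCA1 S776A mice (3.93% of all genes) and 2, Fat2 and Pax6, in S776A double mice (6.93% of all genes). With homozygous mice 3 and 4 left out, these were 2 members in SCA1 S776A mice, Fat2 and Pax6 (6.25% of all genes), and 3 in S776A double mice, Fat2, Pax6 and Gabra6 (12.6% of all genes). Genes called then numbered 8 in place of 3 in SCA1 S776A mice and 17 in place of 6 in S776A double mice, with 0 members among them. DESeq2 with and without ComBat-seq called none. The median log2 fold change of the members was -0.05 in SCA1 S776A and -0.07 in S776A double mice, beside 0.003 and -0.001 over all genes. Groups did not overlap for 0 members in SCA1 S776A mice (4.39% of all genes) and for 2 members, Fat2 and Cbln3, in S776A double mice (7.11% of all genes).

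Contrasts with no WT mice set the groups that carry an expanded allele against one another. No member was called by edgeR or DESeq2 between SCA1 S776A and SCA1 mice (0.00444% of all genes called), between S776A double and SCA1 mice (0%) or between S776A double and SCA1 S776A mice (0%). No member reached an unadjusted p of 0.05 in any of these comparisons. Every member interval lay within 0.5 of 0, and the member log2 fold changes spanned -0.10 to 0.06, -0.09 to 0.08 and -0.07 to 0.06. Non-overlap between the groups was seen for 0 members, against 3.41%, 2.7% and 2.65% of all genes.

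Markers of other cell types were read in the same libraries. The summed level of 8 Purkinje cell markers was 7487 to 8591 CPM in WT mice of batch 1 and 5698 to 6384 CPM in SCA1 mice, with no overlap. It was 6387 to 7425 CPM in SCA1 S776A and 6219 to 8363 CPM in S776A double mice. The members were summed on another measure, the share of gene counts without the library scaling of the CPM values. This share was 0.645% to 0.676% in WT mice of batch 1 (mean 0.653%) and 0.592% to 0.655% in SCA1 mice (mean 0.624%). The WT and SCA1 ranges overlapped only from 0.645% to 0.655%. In SCA1 S776A mice the share was 0.579% to 0.662% (mean 0.628%). In S776A double mice it was 0.572% to 0.646% (mean 0.620%). Of the Purkinje cell markers 7 of 8 had an unadjusted p under 0.05 by edgeR in SCA1 mice. Their median log2 fold change was -0.27, and none was called. At that p there were 1 of the 10 members, 8 of 26 other granule cell genes and 8.25% of all genes. Without WT S776A homozygous mice 3 and 4 in the fit there were 2 of the 10 members and 12.4% of all genes. All these lists were chosen with earlier results of these data known, so the counts test no difference between cell types. Summed markers of unipolar brush cells, 172 to 202 CPM in WT and 129 to 163 CPM in SCA1 mice, and of inhibitory interneurons, 1743 to 1950.4 and 1542 to 1660.2 CPM, were lower in every SCA1 mouse too. Oligodendrocyte markers overlapped, at 6185 to 7406 CPM in WT and 6768 to 8318 CPM in SCA1 mice, and 2 of 5 had an unadjusted p under 0.05. Choroid plexus markers varied from 20.8 to 5162 CPM between mice of batch 1, and markers of forebrain excitatory neurons stayed at 7.47 to 9.36 CPM. The part of these other cells in the members' values was not tested.

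The wider list of 26 granule cell genes beyond the members had 0 calls in SCA1 mice and a median log2 fold change of -0.02. Of these 26 genes 8 had an unadjusted p under 0.05 by edgeR, beside 8.25% of all genes. In S776A double mice 7 of 26 did (6.93% of all genes), and in SCA1 S776A mice 3 (3.93% of all genes). In WT S776A homozygous mice 2 did (9.98% of all genes). The wider lists were chosen with earlier results of these data known, so such counts describe the lists and test nothing about granule cells. The lowest p in SCA1 mice were those of Calb2 and Chn2, named after their values were seen. Calb2 encodes calretinin, a calcium-binding protein of granule and unipolar brush cells, and Chn2 a Rac GTPase-activating protein. Calb2 had 461 ± 18.4 CPM in WT and 617 ± 32.5 CPM in SCA1 mice (SD, n = 4), with a log2 difference of 0.42 (edgeR adjusted p = 0.0635). Chn2 had 635 ± 43.5 and 504 ± 70.6 CPM (SD, n = 4), a log2 fold change of -0.33 (edgeR adjusted p = 0.111). By DESeq2 with batch as a term the adjusted p was 0.00811 for Calb2 and 0.0306 for Chn2. After ComBat-seq, DESeq2 gave 0.000295 and 0.00326. Without WT S776A homozygous mice 3 and 4, edgeR gave 0.0148 and 0.0325. In every edgeR fit both stayed above 0.01. In no fit was either log2 fold change beyond 0.5, so neither gene was called in SCA1 mice. The list of 15 tested genes of precursors and migrating granule cells had 0 calls in SCA1 mice and a median log2 fold change of 0.00. Of these 15 genes 3 had an unadjusted p under 0.05, beside 8.25% of all genes.

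Grm4, also named after its values were seen, encodes the presynaptic glutamate receptor mGluR4 of parallel fiber terminals and stood furthest from WT among the 26 genes of the wider list. It had 715, 729.98, 637 and 622 CPM in WT mice of batch 1 and 458, 375, 415 and 396 CPM in SCA1 mice, so every SCA1 mouse lay well below every WT mouse. SCA1 S776A mice had 519.6, 502, 576 and 408 CPM and S776A double mice 399, 492, 509 and 606 CPM, all below the WT range, and 1 mouse of each group lay within the SCA1 range. The log2 fold change in SCA1 mice was -0.72 (standard error 0.23, edgeR adjusted p = 0.276), and the gene was not called in the fit of all 24 mice. In the fit of batch 1 alone the same log2 fold change had a standard error of 0.11 and an adjusted p of 0.00301, and without WT S776A homozygous mice 3 and 4 the adjusted p was 0.000947. In those mice Grm4 was at 455 and 245 CPM, beside 748 and 722 in the other homozygous mice. DESeq2 after ComBat-seq also called it (adjusted p = 0.00445), and DESeq2 with batch as a term did not (adjusted p = 0.0688). By edgeR, the call for Grm4 was made in the fits that left out these 2 mice and not in the fit that held them.

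WT S776A homozygous mice, which carry no expanded allele, were set against WT mice of batch 2. No member was called by edgeR or DESeq2, and the rule called 0% of all genes. At an unadjusted p under 0.05 there was 1 member, Neurod1, and 2246 of all genes (9.98%). The median log2 fold change of the members was 0.01, as it was over all genes, and 0 members had groups that did not overlap (2.65% of all genes). Neurod1 had 483, 436.5, 456 and 506 CPM in WT mice and 524, 479.6, 537 and 616.5 in homozygous mice, of which 3 lay above the WT range. Its log2 fold change was 0.20 (adjusted p = 0.485 by edgeR), and it was 0.09 without mice 3 and 4.

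The homozygous mice split into pairs. Slc17a7 had 930.4 and 1019 CPM in mice 1 and 2 but 702 and 494 in mice 3 and 4, against 819, 948, 892 and 903 CPM in WT mice of batch 2. Fat2 had 904 and 918 CPM in mice 1 and 2 and 652 and 480 in mice 3 and 4, and Grin2c 322 and 311 CPM against 199 and 166. Gabra6 went the other way, with 889 and 887 CPM in mice 1 and 2 and 1181 and 1253 in mice 3 and 4. The members that were high in mouse 4 had transcripts of lower GC content than those that were low. In mouse 4, Gabra6 (39.7% G or C) and Neurod1 (43.6%) were 0.38 and 0.39 above the mean log2 CPM of WT mice of batch 2, and Slc17a7 (56.6%), Barhl1 (60.6%) and Grin2c (62.1%) were lower by 0.85, 0.52 and 0.69. Tested genes above the median level were split into 5 bins of equal size by GC content, and the median difference of mouse 4 from WT went from 0.35 in the lowest bin to -0.32 in the highest. In mouse 3 it went from 0.18 to -0.15, in mouse 1 from -0.01 to 0.02, and in mouse 2 the other way, from -0.06 to 0.11. Fat2 (52.3%) was lower in mouse 4 by 0.84, further than the median of -0.16 for its bin. Slc17a7, Barhl1 and Grin2c, all in the highest bin, were also lower by more than its median of -0.32.

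**Figure D4:**
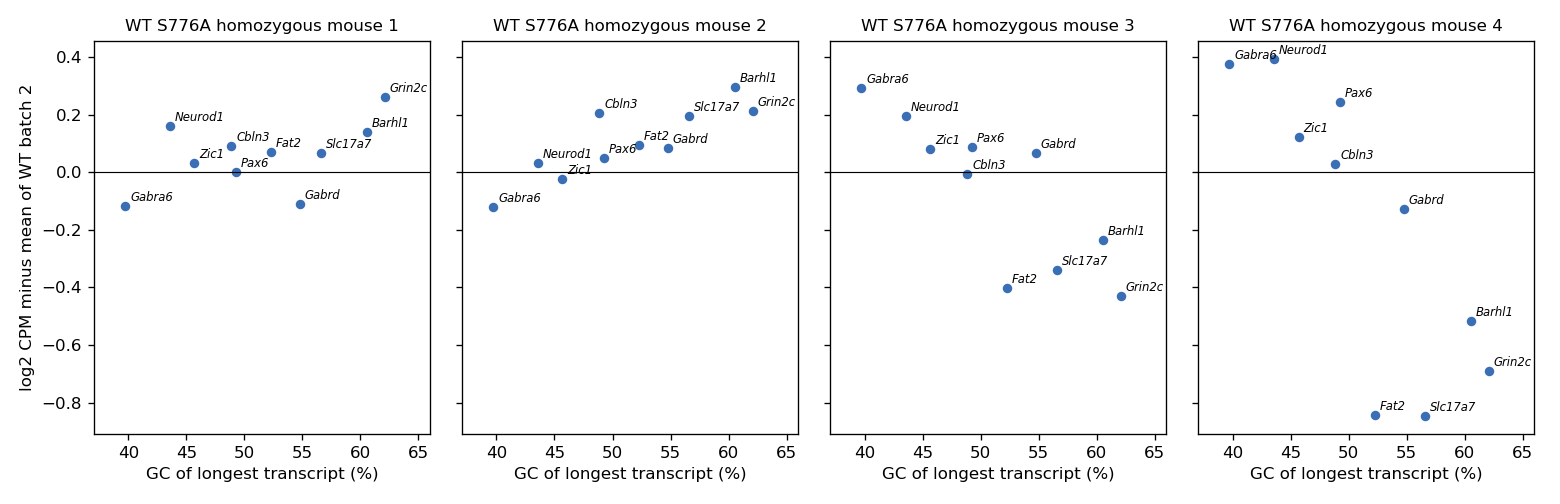
Difference of each WT S776A homozygous mouse from the mean of the WT mice of batch 2, in log2 CPM, for the 10 granule cell genes against the GC content of the longest transcript in percent. In mice 3 and 4 the genes of low GC lie above 0 and Fat2, Slc17a7, Barhl1 and Grin2c lie below it, by up to 0.85 in mouse 4.

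Without mice 3 and 4 the log2 fold changes against WT changed sign for 6 members. Gabra6 went from 0.12 to -0.13, Fat2 from -0.23 to 0.07, Grin2c from -0.11 to 0.23, Barhl1 from -0.05 to 0.21, Slc17a7 from -0.18 to 0.13 and Zic1 from 0.05 to -0.002. No member was called with or without these mice, and the adjusted p by edgeR without them was 1.00 for all 10. At an unadjusted p under 0.05 by edgeR there was then 1 member, Barhl1, and 4.82% of all genes. Tested genes above the median level were also split into 5 bins by transcript length. The median difference from WT went from 0.24 in the shortest bin to -0.14 in the longest in mouse 4. It went from 0.09 to -0.04 in mouse 3, from 0.04 to -0.04 in mouse 2 and from -0.03 to 0.02 in mouse 1. Fat2 has the longest transcript of the members, 14528 bases. The share of mitochondrial counts and the GC trend moved with mice 3 and 4. The part of these and of transcript length in the member values was not tested.

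The WT mice of the batches differed in far more genes than WT and any other genotype. Of the members 1, Grin2c, was called between WT mice of batch 2 and batch 1, where edgeR called 17.6% of all genes, and 7 had an unadjusted p under 0.05, as 51.9% of all genes did. Grin2c had 242, 272, 266 and 297 CPM in batch 2 and 475 to 561 CPM in batch 1, a log2 difference of -0.93 (standard error 0.16, edgeR adjusted p = 5.9e-05). Neurod1 was 0.42 higher in batch 2 (adjusted p = 3.8e-05), Gabra6 0.32 higher (adjusted p = 0.00585), Gabrd 0.23 higher (adjusted p = 0.00836), and Zic1 0.20 higher (adjusted p = 0.00773), each short of the fold of the rule. Cbln3 was 0.24 and Slc17a7 0.27 higher (adjusted p = 0.0186 and 0.0925). WT mice of the batches did not overlap for 7 members, 6 above and Grin2c below, against 46.7% of all genes. The median member difference was 0.22, beside -0.004 over all genes. For genes above the median level, the median difference in log2 CPM was 0.12 in the lowest of 5 GC bins and 0.005 in the highest. By transcript length it was 0.23 in the shortest bin and -0.06 in the longest.

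In the wider lists, batch 2 had higher Calb2 (log2 difference 0.56) and lower Kcnk9, a potassium leak channel of granule cells (-1.11). Among precursor genes Top2a, a topoisomerase of dividing cells, was higher (0.88), and Gli1, a Sonic hedgehog effector, and Grin2b, the NMDA receptor subunit that Grin2c replaces in development, were lower (-0.60 and -0.71). All 5 were called by edgeR. Summed oligodendrocyte markers were 6185 to 7406 CPM in WT mice of batch 1 and 8378 to 9209 in batch 2, and fragments outside annotated genes made up 9.52% to 12.0% in batch 1 and 5.23% to 6.31% in batch 2. Batch and anything else that differed between these sets of WT mice cannot be told apart. Levels of Grin2c, Neurod1 and the other shifted members are therefore not set across batches as genotype effects. With no batch term, Grin2c would read 0.25, 0.27 and 0.26 higher in SCA1, in SCA1 S776A and in S776A double mice and 0.65 lower in homozygous mice, in place of -0.14, -0.12, -0.13 and -0.11.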

How the data were processed

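Cerebellar RNA of 24 mice was sequenced, 1 library each. Per the labels the authors used Trimmomatic 0.36 for trimming and STAR 2.7.2d for alignment (build GRCm38.p6) and deposited whole-number counts of fragments per gene, before any batch correction. The unstranded counts were used. Gene identifiers were matched to GENCODE M21 (54165 of 54232). Batch was inferred by k-means (k of 2) on 4 shares of fragments, and hierarchical clustering gave the same batch for 24 of 24 libraries.

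The test was the quasi-likelihood test of edgeR 4.0.16 (robust, R 4.3.3) on TMM-scaled counts, with genotype and batch in a fit of all 24 mice. P-values were adjusted by Benjamini-Hochberg over 22502 genes. CPM values use TMM-scaled totals, and log2 CPM a prior count of 2. Intervals for single genes are 95%, and counting error alone is small at 979 or more counts of every member in every library. DESeq2 1.42.0, ComBat-seq of sva 3.50.0, other scalings, filters, strands, thresholds and left-out mice were alternatives. The fit was tested on simulated data.

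The members, the wider lists and the marker lists were chosen with earlier results of these data known. All 10 members are named, with genes of the wider lists that were called in a comparison. Chn2 and Grm4 were added after their values were seen. Leaving out WT S776A homozygous mice 3 and 4 together was chosen after seeing the data. Another feature that the files list is not reported here.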

Additional observations from a re-analysis of the deposited data

Results flagged for a closer look

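Cbln3 in the WT mice of batch 2 was flagged for 1 mouse far from the others. Replicate 7 had a log2 CPM of 10.78, while the other 3 mice lay between 10.93 and 10.95, so the gap was 0.904 of the whole range (n = 4). Of 60 groups of 4 mice examined (10 genes in 6 groups), chance flags about 3. Without this mouse the log2 difference of Cbln3 between the WT mice of the batches was 0.29 in place of 0.24. No cause was tested.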

How the results depend on the processing

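In each of the 7 comparisons of genotypes, 0 members were called in all 24 fits that left out 1 mouse and in all 13 other settings, and Grin2c was called between the batches of WT mice in every fit. Medians of the members moved by more than the spread between mice without a batch covariate, to -0.13 in SCA1, -0.15 in SCA1 S776A and -0.16 in S776A double mice, and with library totals only, to 0.15 between the batches. At an adjusted p under 0.05 with no fold minimum, 6 members were called between the batches, as were 45.0% of all genes. Without a batch covariate each genotype was set against the WT mice of both batches, between which the median member log2 difference was 0.22. The cause of the shifts was not tested. Leaving out 1 mouse, medians ranged from -0.08 to -0.02 in SCA1, from -0.08 to -0.04 in SCA1 S776A, from -0.09 to -0.04 in S776A double, from -0.03 to 0.04 in WT S776A homozygous mice and from 0.20 to 0.23 between the batches. Signs of uncalled members near 0 changed most often for SCA1 S776A against SCA1, in 52 of 240 values. Without WT S776A homozygous replicate 4 alone, Grm4 in SCA1 mice had an adjusted p of 0.0136. No paired analysis was possible because the labels give each mouse its own number, shared by no other group, and the replicate numbers used here follow accession order and only name the mice.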
